A study of Homo sapiens with 8 samples.

Results

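The genes described here build the small (40S) subunit of the ribosome. They are 44 genes of the small subunit processome and of the late steps of 40S assembly, taken from a list of symbols. That list was chosen with earlier results of these data known, so the counts below describe it and are not an independent test. All 44 were represented by a probe set with exactly 1 gene symbol, of 19775 genes represented in this way, and where a gene had several such probe sets the brightest over the 8 arrays was read. In background, the processome is a large particle that forms on the nascent ribosomal RNA precursor around the U3 small nucleolar RNA, folds it and cleaves it to release the 18S part. Late factors then escort the pre-40S particle out of the nucleus, complete the 3′ end of 18S rRNA and hold the particle back from translation until it is mature. Rapidly dividing cells such as leukemic blasts make ribosomes at a high rate, and many genes of the pathway are known targets of the MYC transcription factor.

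Kasumi-1, a human acute myeloid leukemia cell line with the AML-ETO translocation, was electroporated with in vitro transcribed RNA (IVT-RNA). The RNA encoded GFP in the 3 control arrays, the wild type nuclear receptor NR4A1 in 3 arrays (NR4A1 WT), or NR4A1 with residues of a zinc finger of its DNA binding domain replaced in 2 arrays (NR4A1 CEAA). Total RNA was taken 6 h later from all groups. Every group was therefore electroporated and no array came from cells left untreated. The line is described as lacking endogenous NR4A proteins, so NR4A1 was supplied by the introduced RNA. The amount of each form in the cells was not checked here. The NR4A1 probe sets could not serve, because their position relative to the introduced RNA is not known. Values are log2 signals of Affymetrix human genome U133 Plus 2.0 arrays after Robust Multiarray Analysis (RMA), in which a difference of 1 is a 2-fold change. Nothing in the labels ties the replicates to separate cultures, so the p-values below measure the spread between these arrays, which may be technical. In a bulk RNA sample, fewer cells with a transcript and less of it per cell cannot be told apart.

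The array medians lay between 4.755 and 4.802, and all 44 genes read above the highest array median on every array, with means over the 8 arrays from 6.91 (NOL6) to 12.47 (FBL). The SD of the differences between 2 arrays was 0.147 to 0.208 in the 7 pairs within a group and 0.248 to 0.409 in the 21 pairs between groups, so no array stood apart from its group. Of the markers expected of Kasumi-1 blasts, KIT, MPO, RUNX1T1, PTPRC, CD34 and ANPEP read above the array medians. ANPEP did so by the least (5.85 to 6.25), and CD33 was not measured here. Of 13 markers of other cell types measured, 11 read at most 5.69. Among these 11, CD3D, CD79A and HBB (up to 5.38, 5.62 and 5.69) also lay above the array medians. EPCAM (11.43 to 11.86) and COL1A1 (7.27 to 7.61) were brighter. Their part in the results was not tested.

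The promoters of the genes were read for letters that played no part in their choice. A canonical E-box (CACGTG, the same on both strands), the letters bound by MYC and related factors, was present in 18 of the 38 genes with a promoter in the RefSeq table (GRCh38.p14; 250 bases before and 50 after the start). Per promoter, 46.2% of 39 entries held it, against 8.36% of the 21490 promoters of the genes on the arrays and 7.26% of all 35116 promoters. Most of these matches lay at or past the start itself. An E-box that crossed or followed the start was found in 14 of the 39 promoters (35.9%) and in 246 (1.14%) of those of the genes on the arrays, whereas one wholly before the start was found in 15.4% and 7.38%. This split at the start was made after the matches were seen. No entry was found for 6 genes, NOP58, MPHOSPH10, UTP23, DCAF13, NOL10 and RRP12.

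The following 30-base windows show the E-box (capitals) nearest the start in the 8 E-box genes with the largest falls after NR4A1 WT and in 2 of the 3 that were not called, FBL and UTP25. They lie at chr9:33473894-33473923 on the minus strand (NOL6), chr6:41921515-41921544 on the plus strand (BYSL) and chr3:51941892-51941921 on the minus strand (RRP9). WDR43 is at chr2:28894658-28894687, UTP18 at chr17:51260538-51260567, UTP4 at chr16:69132621-69132650 and PWP2 at chr21:44107388-44107417, all on the plus strand. NOP14 is at chr4:2963374-2963403 and FBL at chr19:39846356-39846385 on the minus strand, and UTP25 at chr1:209827974-209828003 on the plus strand. The first base of the E-box ranged from 16 bases before the start (UTP4) to 28 bases after it (BYSL).
NOL6: ggcatttccgccCACGTGggaagctatgag
BYSL: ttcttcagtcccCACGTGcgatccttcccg
RRP9: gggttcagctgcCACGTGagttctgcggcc
WDR43: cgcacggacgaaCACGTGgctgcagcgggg
UTP18: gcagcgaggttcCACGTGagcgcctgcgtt
UTP4: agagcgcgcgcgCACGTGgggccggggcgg
PWP2: tgagctgcggcaCACGTGcgacggccgtga
NOP14: tccgcggcccggCACGTGtcttagggtagc
FBL: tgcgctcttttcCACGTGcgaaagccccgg
UTP25: agtcagcgagccCACGTGcttgtgttgact

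Other motifs were less frequent. The NR4A response element (NBRE, AAAGGTCA on either strand) was found in 0 of the 39 promoters and in 0.973% of those of the genes on the arrays. The ETS letters CCGGAAGT were found in 12.8% (EMG1, LTV1, PWP2, RIOK1 and UTP4) and in 5.4%, the NRF1 motif in 5.13% (NOB1 and UTP18) and in 1.54%, and the BANP motif in 5.13% (NOL11 and NOP14) and in 0.54%. The median GC content was 63.0% for the 39 promoters and 62.7% for those of the genes on the arrays. The 250 bases before the start of UTP4 (chr16:69132399-69132648, plus strand) are shown because they hold the ETS letters (on the reverse strand) and, nearer the start, the E-box, both in capitals. A match describes letters in this window and not a bound site.
UTP4: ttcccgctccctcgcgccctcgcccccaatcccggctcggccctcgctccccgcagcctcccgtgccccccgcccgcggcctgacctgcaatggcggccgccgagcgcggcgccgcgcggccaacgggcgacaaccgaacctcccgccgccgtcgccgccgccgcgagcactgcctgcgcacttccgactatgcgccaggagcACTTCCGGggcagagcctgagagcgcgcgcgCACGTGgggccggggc

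Most of the 40S assembly genes were lower after NR4A1 WT, each by less than 2-fold. Of the 44 genes, 35 were lower than with GFP and 0 were higher (limma, Benjamini-Hochberg adjusted p under 0.05 over 19775 genes), where 10.3% of all genes were lower and 9.97% higher. The median difference was -0.38 on the log2 scale, with a range from -0.85 (WDR3) to 0.10 (RRP36), against 0.00 over all genes. All 3 NR4A1 WT arrays read below all 3 GFP arrays for 41 of the 44 genes, a pattern that 17.8% of all genes showed in this direction. Averaged over the 44 genes, the 3 NR4A1 WT arrays lay 0.37, 0.38 and 0.39 below the GFP mean, as the plot of the 44 genes by array shows. The fall was called and exceeded 1.5-fold in 9 of the 44 genes, as in 433 of all 19775 genes.

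**Figure D1:**
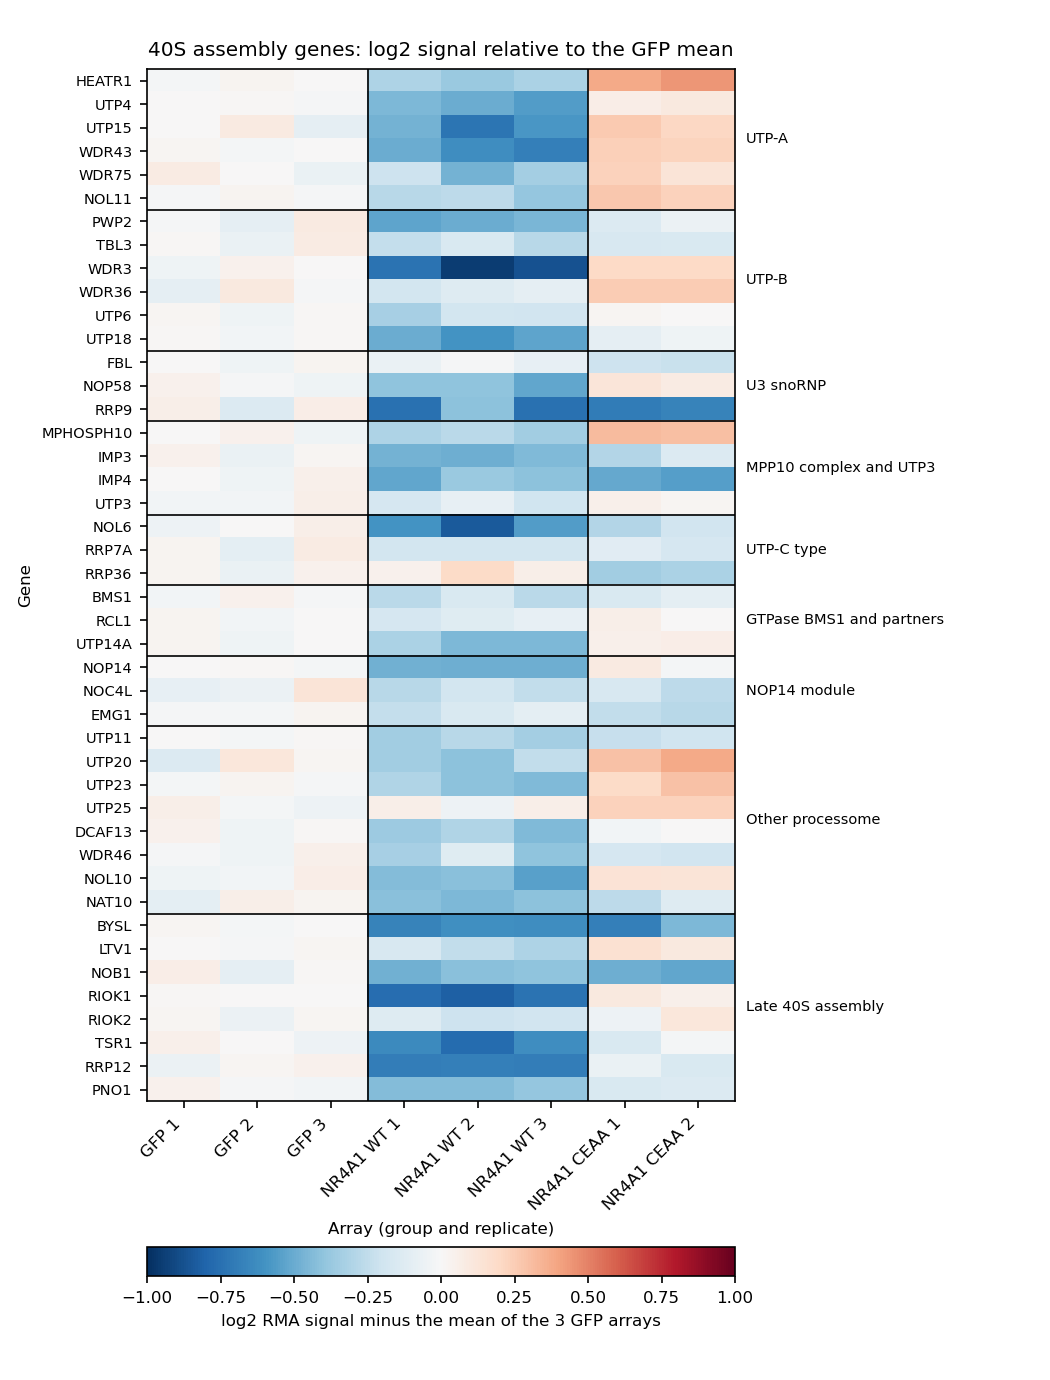
Log2 RMA signal of each of the 44 genes (rows, by role) on each of the 8 arrays (columns, by group), minus the mean of the 3 GFP arrays; blue is lower and red is higher, from -1 to 1. The NR4A1 WT columns are blue for all but a few genes such as RRP36 and UTP25, whereas the NR4A1 CEAA columns are red for UTP-A and blue for RRP9, IMP4, BYSL and NOB1.

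Rank Product, the test named in the study's methods, called 9 of the 44 genes lower and 0 higher at a q under 0.05, where it called 2.16% of all genes lower and 2.22% higher. Of the 35 limma calls, 8 (WDR75, TBL3, UTP6, BMS1, NOC4L, UTP20, WDR46 and LTV1) were lost when 1 array was left out. WDR75 lost it without the first GFP array (-0.30, limma adjusted p = 0.0584) and LTV1 without the third (-0.24, limma adjusted p = 0.0552). The other 6 lost it without any of 3 to 8 arrays, NOC4L without each of the 8 (limma adjusted p up to 0.13).

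The UTP-A complex, which is the first to bind the 5′ end of the ribosomal RNA precursor and part of which is also needed for its transcription, was lower for 6 of 6 genes after NR4A1 WT, with a median of -0.42. WDR43, a scaffold subunit with WD40 repeats, read 9.99, 9.95 and 9.97 with GFP and 9.47, 9.35 and 9.29 with NR4A1 WT. The arrays did not overlap, and the difference was -0.60 (SE 0.06, limma adjusted p = 0.000203). NOL11, a vertebrate UTP-A subunit, showed the smallest difference of the complex, -0.32 (SE 0.05, adjusted p = 0.00408). Its GFP arrays read 11.26, 11.30 and 11.26 and its NR4A1 WT arrays 10.99, 11.01 and 10.88, again without overlap. UTP15, UTP4, HEATR1 and WDR75 lay between, at -0.59, -0.50, -0.34 and -0.34.

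The UTP-B complex, which joins UTP-A on the precursor and contacts the U3 RNA, was lower for 5 of 6 genes, with a median of -0.36. It held the gene with the largest fall. WDR3, a WD40 scaffold protein of the complex, read 10.05, 10.13 and 10.09 with GFP and 9.35, 9.14 and 9.22 with NR4A1 WT. These groups were well apart relative to their spread, with a difference of -0.85 (SE 0.06, limma adjusted p = 6.06e-05). UTP18 and PWP2 were lower by a difference of -0.54 and -0.50, and TBL3 and UTP6 by -0.23 each. The dimmer probe sets of PWP2 gave 0.09 and -0.12 and were not called (limma adjusted p = 0.657 and 0.558). With the mean of all probe sets of a gene, PWP2 and UTP6 were not called (limma adjusted p = 0.113 and 0.326). WDR36 did not pass the test, at -0.14 (95% interval -0.28 to 0.00, limma adjusted p = 0.167), although its NR4A1 WT arrays at 8.91, 8.96 and 9.00 did not exceed the lowest GFP array.

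Among the proteins of the U3 particle, RRP9, which binds the U3 RNA specifically, and NOP58, a core protein of all box C/D particles, were lower. RRP9 read 7.51, 7.31 and 7.52 with GFP and 6.70, 7.04 and 6.70 with NR4A1 WT, a difference of -0.63 (SE 0.10, limma adjusted p = 0.00307). Its second NR4A1 WT array was the closest to the GFP arrays, without reaching them. NOP58 differed by -0.44. FBL, the methyltransferase of the same particles, did not pass the test, at 12.55, 12.51 and 12.58 against 12.48, 12.54 and 12.47, and these arrays overlapped (difference -0.05, 95% interval -0.16 to 0.06).

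The MPP10 complex, which binds the U3 RNA and precursor together, was lower for IMP3 (-0.47), IMP4 (-0.44) and MPHOSPH10 (-0.31), and UTP3 stayed at -0.15 (95% interval -0.28 to -0.03, limma adjusted p = 0.0891). Of the 3 UTP-C type genes, NOL6 was called on the probe set followed. NOL6, the human UTP22, read 7.17, 7.22 and 7.28 with GFP and 6.62, 6.38 and 6.66 with NR4A1 WT, without overlap and with a difference of -0.67 (SE 0.08, adjusted p = 0.000811), though the mean of its 4 probe sets gave -0.21 (limma adjusted p = 0.0545). Its partners in the complex gave -0.18 for RRP7A (95% interval -0.32 to -0.05, limma adjusted p = 0.0635) and 0.10 for RRP36 (95% interval -0.04 to 0.23, limma adjusted p = 0.329). Dimmer probe sets of both were called lower, at -0.41 for RRP7A (limma adjusted p = 0.0173) and -0.32 for RRP36 (limma adjusted p = 0.0158).

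Of the remaining 14 processome genes, 11 were lower and RCL1, EMG1 and UTP25 were not called. The GTPase BMS1 was lower by a difference of -0.23 and UTP14A, a helicase cofactor, by -0.40, whereas RCL1, the partner of BMS1, gave -0.12 (95% interval -0.24 to -0.01, limma adjusted p = 0.141). NOP14, which joins the head region of the particle, was lower by a difference of -0.49, with NR4A1 WT arrays of 8.67, 8.66 and 8.66 and GFP arrays of 9.15, 9.16 and 9.13. Its partner NOC4L was lower by a difference of -0.24, and EMG1, a pseudouridine methyltransferase, gave -0.16 (95% interval -0.29 to -0.04, limma adjusted p = 0.0693). Of the 8 other processome genes 7 were lower, with a median of -0.35 over the 8. They were NOL10 (-0.46), the RNA acetyltransferase NAT10 (-0.43), UTP23 (-0.38), DCAF13 (-0.37), the large scaffold UTP20 (-0.33), UTP11 (-0.32) and WDR46 (-0.28). UTP25 read 7.99, 7.91 and 7.88 with GFP and 7.99, 7.88 and 7.99 with NR4A1 WT, with overlap (difference 0.03, 95% interval -0.10 to 0.15).

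The late 40S assembly factors gave the largest median of the groups, -0.53, with 7 of 8 genes lower. Of the 9 genes that fell by more than 1.5-fold, 4 were late factors. RIOK1, an atypical kinase that acts in the last cytoplasmic steps, read 10.06, 10.05 and 10.05 with GFP and 9.29, 9.23 and 9.31 with NR4A1 WT. With arrays this close within groups, the difference of -0.78 had the lowest adjusted p of the 44 genes (SE 0.05, limma adjusted p = 2.15e-05). RRP12, which takes part in export of the pre-40S particle, read 9.30, 9.38 and 9.40 with GFP and 8.67, 8.68 and 8.67 with NR4A1 WT, a difference of -0.69 (limma adjusted p = 6.15e-05). TSR1, a GTPase-like factor that blocks premature joining of the subunits, read 8.28, 8.23 and 8.18 with GFP and 7.59, 7.46 and 7.61 with NR4A1 WT (difference -0.67). BYSL, needed for export and processing of the particle, read 8.90, 8.86 and 8.88 with GFP and 8.21, 8.27 and 8.26 with NR4A1 WT (difference -0.63). None of these 4 genes had overlapping arrays. NOB1, the endonuclease that cuts the 3′ end of 18S rRNA, and PNO1, its partner, were lower by differences of -0.43 and -0.42. LTV1 was lower by a difference of -0.24, and RIOK2, another atypical kinase, gave -0.17 (95% interval -0.31 to -0.03, limma adjusted p = 0.0913).

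**Figure D2:**
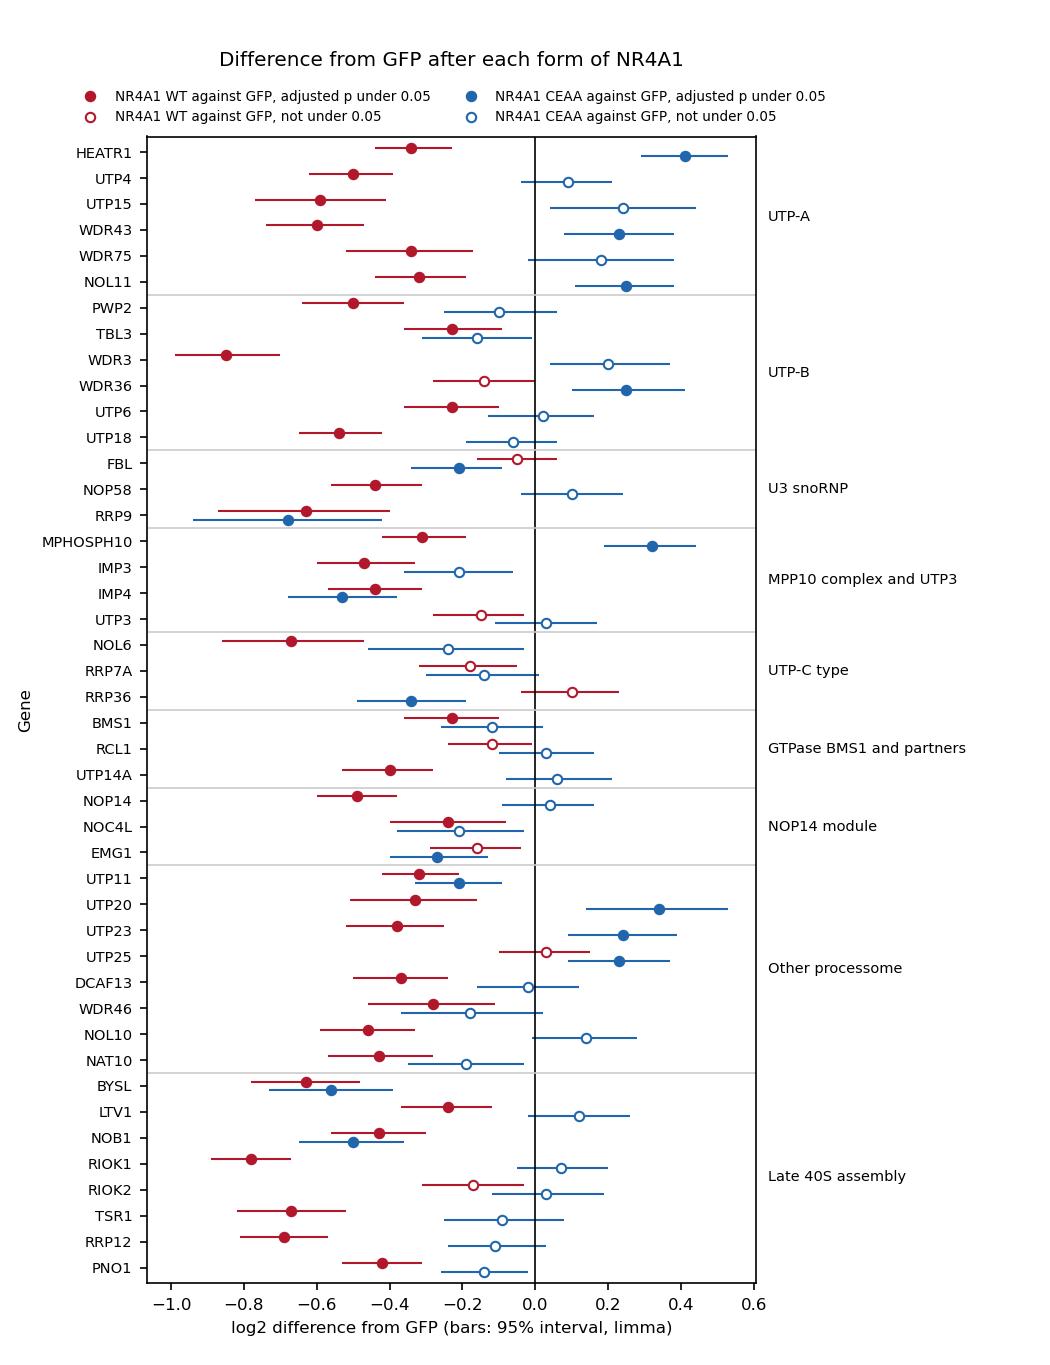
Log2 difference from GFP for each of the 44 genes after NR4A1 WT (3 arrays, red) and NR4A1 CEAA (2 arrays, blue), with 95% intervals from limma; filled points had an adjusted p under 0.05 and open points did not. Both comparisons use the same 3 GFP arrays. Red points run from -0.85 (WDR3) to 0.10 (RRP36) and blue points from -0.68 (RRP9) to 0.41 (HEATR1).

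The NR4A1 CEAA arrays asked whether a form of NR4A1 altered in its DNA binding domain gives the same pattern. Against GFP, 8 of the 44 genes were lower and 8 were higher (limma, adjusted p under 0.05), where 12.1% of all genes were lower and 7.14% higher. The differences ranged from -0.68 (RRP9) to 0.41 (HEATR1), with 22 genes below 0 and 22 above. Averaged over the 44 genes, both arrays lay close to GFP, at -0.04 and -0.03. The GFP arrays are those used for NR4A1 WT, so the comparisons with GFP are not independent of each other. Rank Product called only RRP9 lower and 0 genes higher, where it called 1.36% of all genes lower and 0.45% higher. Of the 16 limma calls, 12 were lost without 1 array, at adjusted p of up to 0.0532 (RRP9, without the first NR4A1 CEAA array) to 0.209 (UTP23). Those of HEATR1, IMP4, BYSL and NOB1 were made whichever array was left out. Without the first NR4A1 CEAA array 3 genes were lower and 1 was higher.

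The 8 genes that were higher after NR4A1 CEAA were HEATR1, MPHOSPH10, UTP20, NOL11, WDR36, UTP23, WDR43 and UTP25. HEATR1, the largest subunit of UTP-A, read 9.87, 9.92 and 9.89 with GFP, 9.58, 9.52 and 9.57 with NR4A1 WT and 10.27 and 10.33 with NR4A1 CEAA. The 3 groups did not overlap, with a difference from GFP of -0.34 after NR4A1 WT (limma adjusted p = 0.00155) and of 0.41 after NR4A1 CEAA (limma adjusted p = 0.00232). MPHOSPH10, the scaffold of the MPP10 complex, read 9.68, 9.72 and 9.64 with GFP, 9.37, 9.41 and 9.33 with NR4A1 WT and 10.00 and 9.98 with NR4A1 CEAA. It too had 3 separate groups, and its difference of 0.32 after NR4A1 CEAA (limma adjusted p = 0.00702) was not called without the first NR4A1 CEAA array (0.31, limma adjusted p = 0.0596). UTP20 differed by 0.34, NOL11 and WDR36 by 0.25, UTP23 by 0.24, and WDR43 and UTP25 by 0.23. On the probe sets followed, all 6 UTP-A genes read above every GFP array on both NR4A1 CEAA arrays, as 22.1% of all genes did. Their median difference was 0.23, and 3 of the 6 passed the test. Of their other probe sets above the array medians, that of UTP4 gave -0.13 (limma adjusted p = 0.236). Those of HEATR1 gave 0.31 and 0.18, and that of UTP15 gave 0.16. The mean of UTP-A on the NR4A1 CEAA arrays was 0.24 and 0.22 above GFP, and on the NR4A1 WT arrays it was -0.37, -0.49 and -0.48.

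The 8 genes that were lower after NR4A1 CEAA were RRP9, BYSL, IMP4, NOB1, RRP36, EMG1, FBL and UTP11. RRP9 read 6.75 and 6.78 with NR4A1 CEAA, below every GFP array, a difference of -0.68 (SE 0.11, limma adjusted p = 0.00603) that was not called without the first NR4A1 CEAA array (-0.67, limma adjusted p = 0.0532). BYSL read 8.20 and 8.43, a difference of -0.56 (limma adjusted p = 0.00234) with the widest gap between the NR4A1 CEAA arrays among the genes named here. IMP4, a protein of the MPP10 complex, read 9.74, 9.70 and 9.79 with GFP, 9.22, 9.37 and 9.33 with NR4A1 WT and 9.23 and 9.19 with NR4A1 CEAA. Only the GFP arrays stood apart from the rest, and the difference after NR4A1 CEAA was -0.53 (limma adjusted p = 0.00179). NOB1 read 10.52, 10.36 and 10.46 with GFP, 9.97, 10.03 and 10.05 with NR4A1 WT and 9.96 and 9.93 with NR4A1 CEAA, a difference of -0.50 (limma adjusted p = 0.00208). RRP36 fell after NR4A1 CEAA, to 9.00 and 9.03 from 9.38, 9.28 and 9.39 with GFP (difference -0.34, limma adjusted p = 0.0108), and read 9.39, 9.54 and 9.41 with NR4A1 WT. EMG1 differed by -0.27, FBL by -0.21 and UTP11 by -0.21.

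**Figure D3:**
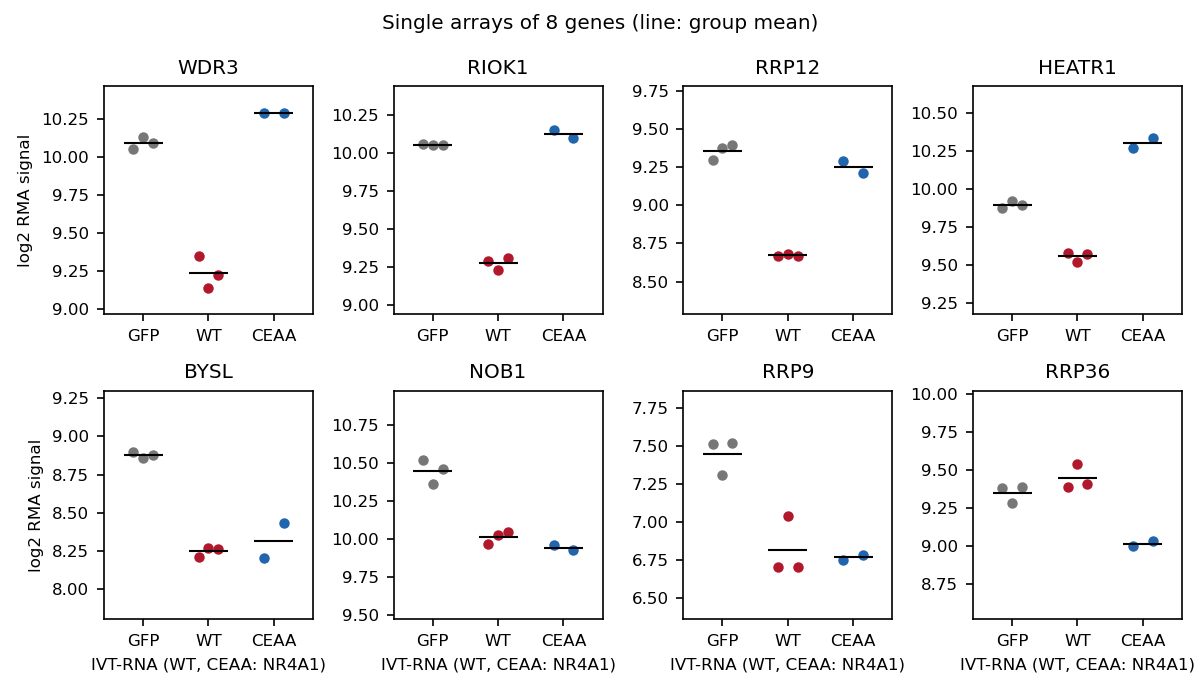
Log2 RMA signal of 8 genes on single arrays (points) with the mean of each group (line), for GFP (3 arrays), NR4A1 WT (3) and NR4A1 CEAA (2); each panel spans 1.5 on the log2 scale. WDR3, RIOK1 and RRP12 were lowest with NR4A1 WT, HEATR1 was low with NR4A1 WT and high with NR4A1 CEAA, BYSL, NOB1 and RRP9 were low with both, and RRP36 was lowest with NR4A1 CEAA.

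The forms of NR4A1 were also compared directly, without a measure of how much of each the cells held. With NR4A1 WT 29 of the 44 genes were lower than with NR4A1 CEAA and 2 were higher (limma, adjusted p under 0.05), with a median of -0.36, where 13.4% of all genes were lower and 18.0% higher and the median was 0.03. WDR3 differed the most, at -1.05 (SE 0.07, limma adjusted p = 3.34e-05), with 10.29 on both NR4A1 CEAA arrays. RIOK1 (-0.85), UTP15 (-0.83), WDR43 (-0.83), HEATR1 (-0.74) and UTP20 (-0.67) came next. For these, as for 34 of the 44 genes and 22.6% of all genes, every NR4A1 WT array read below both NR4A1 CEAA arrays. UTP-A was lower for 6 of 6 genes with a median of -0.67, UTP-B for 5 of 6 with a median of -0.40, and late 40S assembly for 5 of 8 with a median of -0.32.

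The genes higher with NR4A1 WT than with NR4A1 CEAA were RRP36, by 0.44 (SE 0.07, limma adjusted p = 0.00152), and FBL, by 0.16 (limma adjusted p = 0.0498). A dimmer probe set of RRP36 gave -0.21 in this comparison (limma adjusted p = 0.0869), and the mean of its probe sets gave 0.12, which was not called (limma adjusted p = 0.216). The call of FBL was lost without any 1 of the 8 arrays (adjusted p up to 0.176). Among the genes called lower against GFP with both forms, the direct difference was small for RRP9 (0.05, limma adjusted p = 0.813), IMP4 (0.09, limma adjusted p = 0.322), NOB1 (0.07, limma adjusted p = 0.458), BYSL (-0.07, limma adjusted p = 0.502) and UTP11 (-0.11, limma adjusted p = 0.169). The 95% intervals of these differences were -0.22 to 0.31, -0.05 to 0.24, -0.07 to 0.22, -0.24 to 0.09 and -0.23 to 0.01, so differences of the size seen for WDR3 or RIOK1 lay outside them. Of the 31 direct calls, 7 were lost without 1 array, those of UTP6, FBL, IMP3, UTP3, NOL6, UTP25 and NAT10. IMP3 and NOL6 lost it only without the second NR4A1 CEAA array (limma adjusted p = 0.151 and 0.0742). Rank Product called only WDR3, as lower, where it called 0.941% of all genes lower and 1.84% higher.

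**Figure D4:**
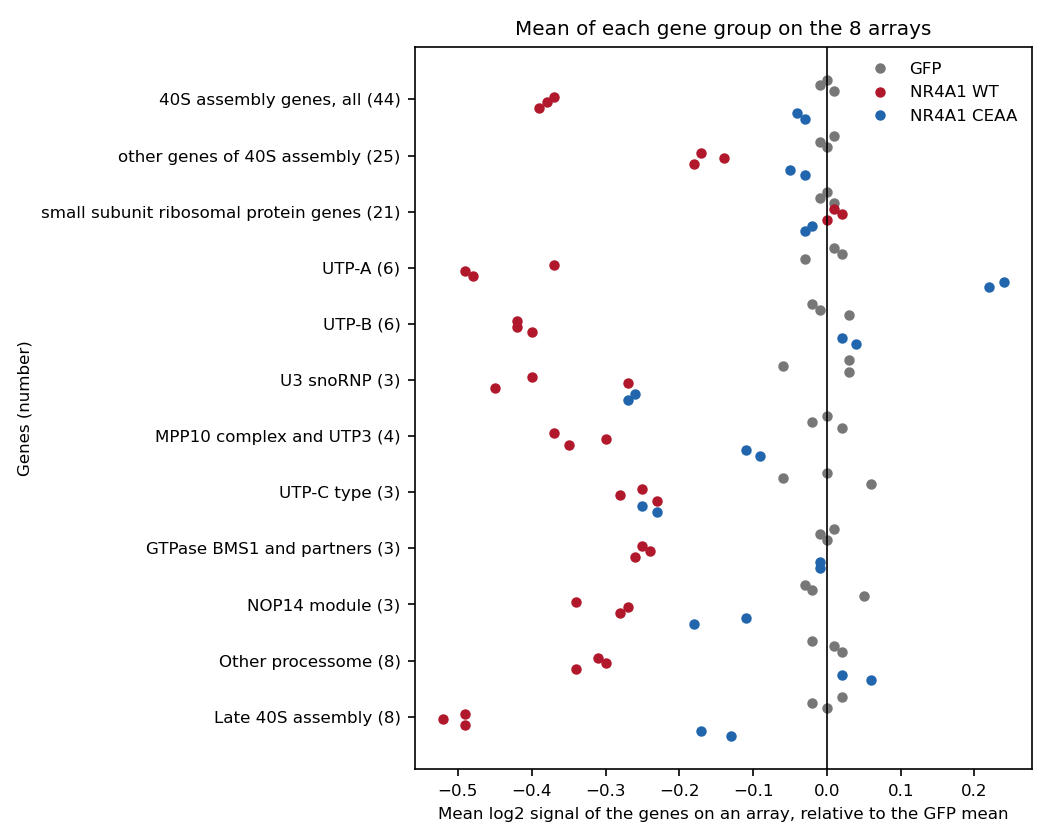
Mean log2 signal of each gene group on each of the 8 arrays after subtraction of the GFP mean (grey GFP, red NR4A1 WT, blue NR4A1 CEAA; the number of genes is in brackets). The 44 genes as a whole lay at -0.37 to -0.39 with NR4A1 WT and at -0.04 and -0.03 with NR4A1 CEAA, UTP-A at 0.24 and 0.22 with NR4A1 CEAA, and the small subunit ribosomal protein genes within 0.03 of GFP.

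Other genes of the same pathway gave a smaller shift. Of 25 further genes of 40S assembly, 12 were lower after NR4A1 WT and 2 were higher, with a median of -0.16, where 10.3% of all genes were lower and 9.97% higher. Without the first GFP array, the third GFP array or the third NR4A1 WT array, 7 were lower. The largest falls were those of LYAR (-0.76), a nucleolar zinc finger protein, and of the helicases DDX10 (-0.57) and DDX52 (-0.55). Both that were higher, CSNK1D (0.46, arrays of 10.48, 10.74 and 10.60 against 10.14, 10.18 and 10.13) and RIOK3 (0.20), encode kinases that act on the pre-40S particle, and the call of RIOK3 was lost without any of 7 of the 8 arrays (limma adjusted p up to 0.106). After NR4A1 CEAA, 8 were lower and 5 higher, with a median of -0.06, where 12.1% of all genes were lower and 7.14% higher. Without either NR4A1 CEAA array these counts were 3 and 1, without any 1 of the GFP arrays 5 and 3, and Rank Product called 0 lower and 1 higher. ESF1, a processome factor, read 9.12, 9.19 and 9.06 with GFP, 8.75, 8.42 and 8.58 with NR4A1 WT and 9.84 and 9.73 with NR4A1 CEAA, with 3 separate groups and a direct difference of -1.21 (limma adjusted p = 6.88e-05). TSR2, a chaperone of a small subunit protein, and ABT1 were lower after NR4A1 CEAA, by differences of -0.59 and -0.52.

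The transcripts of the ribosomal proteins that these factors assemble were read as well. None of the 21 genes for small subunit ribosomal proteins measured here was called after NR4A1 WT by limma or Rank Product, 0 had an unadjusted p under 0.05, and their median difference was 0.01. They read between 13.32 and 14.84 on the arrays and all 21 were among the brightest 1% of genes, near the top of the scale, and whether a fall could be seen there was not tested. After NR4A1 CEAA only RPS9 was lower, at 13.32 on both arrays against 13.60, 13.59 and 13.64 with GFP (difference -0.29, limma adjusted p = 0.00625), and this call was lost without the first NR4A1 CEAA array (limma adjusted p = 0.0519).

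For 24 of the 44 genes the array holds further probe sets with the same symbol, 44 in all. After NR4A1 WT 12 of these were lower and 0 higher, where 7.07% of all 41091 probe sets were lower and 6.54% higher. After NR4A1 CEAA 1 was lower and 10 higher, where 8.64% and 7.12% of all probe sets were. In the direct comparison 21 were lower with NR4A1 WT and 1 higher, where 12.7% and 13.7% were. Another probe set of HEATR1 differed by -0.36 after NR4A1 WT and by 0.31 after NR4A1 CEAA, near the values of the one followed. The probe sets of a gene also differed, as given above for RRP36, RRP7A and PWP2, and for RRP12 the 4 others were not called after NR4A1 WT. A probe set nearly as bright as the one followed was not called for PNO1 (-0.09, limma adjusted p = 0.602) or TSR1 (-0.21, limma adjusted p = 0.23). The remaining ones of these genes were lower, at -0.66 for PNO1 and at -0.75 and -0.81 for TSR1. For UTP23, a probe set somewhat dimmer than the one followed gave -0.21 (limma adjusted p = 0.069). Its remaining ones gave -0.32 and -0.38, and none was called (limma adjusted p = 0.119 and 0.132). After NR4A1 CEAA, 1 other probe set of RRP7A was lower (-0.42) and another higher (0.44). The position of these probe sets on the transcripts was not used here.

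The E-box was present in genes that fell and in genes that were not called. Of the 29 genes with a promoter entry that were lower after NR4A1 WT, 15 held it, and of the 9 that were not called, 3 did. WDR3 and RIOK1, with the largest falls, had none in this window.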

How the data were processed

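The deposited values are log2 probe set signals, which the authors made from Affymetrix U133 Plus 2.0 arrays by RMA (background correction, quantile normalization and summary of the probes of a set) in RMA Express. Its version is not given in the sources used here. RMA draws arrays toward a common distribution, so a shift shared by all genes cannot be seen. Of 54613 probe sets, 41091 with exactly 1 gene symbol were used, and the brightest of these, by its mean signal on all 8 arrays, stood for each of 19775 genes. Differences between the 3 groups come from a single linear model of all arrays in limma 3.58.1 (R 4.3.3, lmFit and eBayes, 8.04 degrees of freedom per gene), with Benjamini-Hochberg adjustment over all genes and a threshold of 0.05. Rank Product over all pairs of arrays with 100 permutations, the methods' test, was an alternative (q under 0.05). Both were tested on simulated data. The deviations of same-numbered arrays from their group means showed little correlation (-0.0406 to 0.0858). With so few arrays in each group this cannot exclude a pairing by replicate number.

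The 44 genes, the role groups and the other lists were chosen with earlier results of these data known. Of the 29 further assembly genes and 33 small subunit ribosomal protein genes listed, 25 and 21 were measured. The genes given in most detail are, in each comparison, the 6 with the largest difference among those called without overlap, the largest and smallest difference of each role group after NR4A1 WT, genes called against the majority, genes called in both comparisons with GFP, and genes not called after NR4A1 WT. Of the other lists, up to 3 called genes with the largest difference and those called against the list's direction are named. Promoters were read from a RefSeq table (GRCh38.p14) with Python 3.11.15, searched on both strands.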

Additional observations from a re-analysis of the deposited data

Results flagged for a closer look

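The difference between the effects of NR4A1 WT and NR4A1 CEAA passed the test of the difference itself (limma, adjusted p under 0.05) for 31 of the 44 genes. With NR4A1 WT 29 were lower and 2 higher, where 13.4% of all genes were lower and 18.0% higher. Each value is the log2 signal with NR4A1 WT minus that with NR4A1 CEAA. In UTP-A the differences were -0.74 for HEATR1, -0.59 for UTP4, -0.83 for UTP15, -0.83 for WDR43, -0.52 for WDR75 and -0.56 for NOL11. In UTP-B they were -0.40 for PWP2, -1.05 for WDR3, -0.39 for WDR36, -0.25 for UTP6 and -0.47 for UTP18. In the U3 and MPP10 groups they were 0.16 for FBL, -0.54 for NOP58, -0.62 for MPHOSPH10, -0.25 for IMP3 and -0.19 for UTP3. NOL6 gave -0.42, RRP36 0.44, UTP14A -0.47 and NOP14 -0.52. Among the other processome genes they were -0.67 for UTP20, -0.62 for UTP23, -0.20 for UTP25, -0.35 for DCAF13, -0.60 for NOL10 and -0.23 for NAT10. Late factors gave -0.37 for LTV1, -0.85 for RIOK1, -0.58 for TSR1, -0.58 for RRP12 and -0.28 for PNO1.

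Of the 25 other genes of the pathway, 10 were lower and 4 higher with NR4A1 WT than with NR4A1 CEAA, where 13.4% of all genes were lower and 18.0% higher, so the share of higher genes (16.0%) was near that of all genes. Those 4 were ABT1 (0.61), BUD23 (0.20), TSR2 (0.74) and CSNK1D (0.76), and the largest of the negative differences were those of ESF1 (-1.21) and DDX52 (-0.81). Of the small subunit ribosomal protein genes, RPS9 (0.33) and FAU (0.17) passed, 9.52% of the 21 and below the 18.0% of all genes. The calls of BUD23 and FAU were each lost without any of 7 of the 8 arrays.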

How the results depend on the processing

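After NR4A1 WT, 22 of the 35 lower genes kept the call in every limma alternative at an adjusted p of 0.05, after NR4A1 CEAA 4 of 16, and between the forms 21 of 31. The 1 reversal was UTP6, whose difference between the forms was 0.07 with the mean of all probe sets of a gene. Small differences near the threshold and the small number of arrays, 2 with NR4A1 CEAA, limit the smaller calls. Calls of larger falls were lost too. With the mean of all probe sets, these included RRP12 (-0.69 on the probe set followed), NOL6 (-0.67) and PWP2 (-0.50) after NR4A1 WT. That of RRP9 after NR4A1 CEAA (-0.68) was lost without 1 array. RMA values carry no count of molecules, so precision rests on the spread between arrays.

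Counts that moved by more than 1.5 times are given as lower and higher genes. Rank Product called 9 lower of the 44 genes after NR4A1 WT, 1 lower and 0 higher after NR4A1 CEAA, and 1 and 0 between the forms. For the 25 other assembly genes it gave 1 and 0, 0 and 1, and 1 and 0, and 0 for the ribosomal protein genes. At an adjusted p under 0.01 the 44 genes gave 4 lower and 2 higher after NR4A1 CEAA and 1 higher between the forms, the other genes 6 and 1 after NR4A1 WT and 4 and 2 after NR4A1 CEAA, and the ribosomal protein genes 1 higher between the forms. With all probe sets tested, 4 of the 44 genes were higher after NR4A1 CEAA and 1 between the forms, with 1 and 3 of the other genes higher after NR4A1 WT and NR4A1 CEAA and 1 ribosomal protein gene higher between the forms. With the mean of all probe sets these were 1 of the 44 genes higher between the forms, 0 of the other genes higher after NR4A1 WT and 3 lower after NR4A1 CEAA, and 1 and 2 ribosomal protein genes lower after NR4A1 WT and between the forms. An intensity trend in eBayes gave 4 ribosomal protein genes lower after NR4A1 CEAA and 5 higher between the forms, and a filter on dim probe sets 3 lower after NR4A1 CEAA. Weighting the arrays, fitting without the group not compared and normalizing by quantiles again each gave 1 of the 44 genes higher between the forms, and the last 2 of these settings 1 ribosomal protein gene there, and the fit without the group not compared 1 other gene higher after NR4A1 WT. Each array left out in turn gave 28 to 33 of the 44 genes lower after NR4A1 WT, 3 to 9 lower and 1 to 9 higher after NR4A1 CEAA, and 23 to 28 lower and 1 higher between the forms. For the other genes it gave 7 to 10 lower and 1 to 2 higher for NR4A1 WT and 3 to 8 lower and 1 to 6 higher after NR4A1 CEAA, and for the ribosomal protein genes 0 to 1 lower after NR4A1 CEAA and 1 to 2 higher between the forms.

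With the replicate number as a block, 5 of the 44 genes were lower and 3 higher after NR4A1 CEAA and 1 was higher between the forms. The other genes gave 7 lower and 1 higher for NR4A1 WT and 2 higher for NR4A1 CEAA, and 1 ribosomal protein gene was higher between the forms. Whether the numbers pair the arrays is not given in the labels and could not be settled from the values.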
